A study of Mus musculus with 6 samples.

Results

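The let-7 and miR-98 guide strands are the 5p products of the let-7 hairpins and of their relative miR-98, and their levels were compared between livers of mice with metabolic dysfunction-associated fatty liver disease (MAFLD) and control livers. The 9 members are mmu-let-7a-5p, mmu-let-7b-5p, mmu-let-7c-5p, mmu-let-7d-5p, mmu-let-7e-5p, mmu-let-7f-5p, mmu-let-7g-5p, mmu-let-7i-5p and mmu-miR-98-5p (the prefix mmu, for mouse, is left out in what follows), each taken by its name from the 1546 mature mouse miRNAs listed. The NC group was 3 liver libraries of C57BL/6 mice on a normal diet, and the MAFLD group was 3 liver libraries of C57BL/6 mice given a high-fat diet to induce the disease. All were male mice aged 8 weeks at the start, and the diets lasted 16 weeks. Whether a library held RNA of 1 mouse or of several is not given in the sources used here, and the growth protocol in the labels describes human HepG2 cells although titles and listed miRNAs are of mouse liver. Small RNA was sequenced, and the values are CPM, the reads of each miRNA scaled so that all listed miRNAs of a library sum to 1000000.

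let-7 was among the first miRNAs described, in the timing of worm development, and its sequence is nearly the same from worm to human. A guide strand is loaded into an Argonaute protein and finds messenger RNAs by its seed, bases 2 to 8, while the other strand of the hairpin, the passenger, is mostly degraded. LIN28 proteins block let-7 maturation in stem cells and early embryos, and let-7 is plentiful in differentiated tissues such as the adult liver. Its known targets include RAS and HMGA2 messengers and those of the insulin and IGF1 receptors, which links the family to growth control and to glucose handling.

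All 9 guide strands carry 1 seed, GAGGUAG, so the sequences are shown to let the differences outside it be seen, with the seed in capitals. They come from RefSeq on GRCm38.p6, where all 9 members were matched by name.
mmu-let-7a-5p: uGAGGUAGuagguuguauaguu
mmu-let-7b-5p: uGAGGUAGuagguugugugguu
mmu-let-7c-5p: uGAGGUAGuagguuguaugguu
mmu-let-7d-5p: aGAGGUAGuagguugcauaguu
mmu-let-7e-5p: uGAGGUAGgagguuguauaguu
mmu-let-7f-5p: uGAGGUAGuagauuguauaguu
mmu-let-7g-5p: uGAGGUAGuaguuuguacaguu
mmu-let-7i-5p: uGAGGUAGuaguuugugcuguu
mmu-miR-98-5p: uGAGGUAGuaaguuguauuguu
With positions counted from 1 at the 5′ end of let-7a-5p, let-7c-5p differed from it by A19G, let-7e-5p by U9G and let-7f-5p by G12A. let-7b-5p carried A17G and A19G, let-7d-5p U1A and U16C, let-7g-5p G12U and U18C, and miR-98-5p G11A and A19U. let-7i-5p was the most distant from let-7a-5p, with G12U, A17G, U18C and A19U. Of the 36 pairs of members, 4 differed at a single base (let-7a with let-7c, let-7e and let-7f, and let-7b with let-7c). How reads matching several of them were assigned is not given in the sources used here, so the values of these 5 members are less certain one by one than as a sum.

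The members come from 12 hairpin genes. Mirlet7a-1 (chr13:48538179-48538272), Mirlet7f-1 (chr13:48537829-48537917) and Mirlet7d (chr13:48536012-48536114) lie together on the minus strand of chromosome 13, in exons of the long noncoding RNA gene 6720427I07Rik. Mirlet7c-2 (chr15:85706603-85706697) and Mirlet7b (chr15:85707319-85707403) lie in exons of Lncppara on the plus strand of chromosome 15. Mirlet7c-1 (chr16:77599657-77599750) is in an intron of the host gene Mir99ahg, beside Mir99a. Mirlet7e (chr17:17830352-17830444) is in an intron of Spaca6, beside Mir125a, and Mirlet7a-2 (chr9:41536716-41536811) is in an intron of 3110039I08Rik, beside Mir100. Mirlet7f-2 (chrX:151912346-151912428) and Mir98 (chrX:151913214-151913321) are in introns of the ubiquitin ligase gene Huwe1. Mirlet7g (chr9:106178840-106178927) is in an intron of Wdr82, and Mirlet7i (chr10:122985640-122985724) is in an exon of the pseudogene D630033A02Rik. The positions are those of GRCm38, the build named in the submitters' processing notes.

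The libraries held between 1336935 and 4685712 reads on miRNAs, and the lowest level of any member in any library was 54.2 CPM, far above the 0.640 to 2.24 CPM that 3 reads stand for. In the NC libraries miR-148a-3p, the most abundant miRNA of these livers, took 71.4%, 63.3% and 48.5% of the reads of replicates 1, 2 and 3, against 46.8%, 56.7% and 51.6% in the MAFLD libraries. NC replicate 3 thus stood nearer to the MAFLD libraries than to the other NC libraries, and a large miR-148a-3p share by itself lowers the CPM of all other miRNAs. The hepatocyte marker miR-122-5p, the liver-specific miRNA, was read at 42159 to 85150.0 CPM in NC and at 55196 to 70527 CPM in MAFLD libraries. The 5 miRNAs of the brain list, led by miR-9-5p, summed to 466 and 751 CPM in NC replicates 1 and 2. The sum was 44.6 to 64.5 CPM in the remaining 4 libraries, among them NC replicate 3, and miR-124-3p was at 0 in 3 of those 4. The endothelial list is both strands of miR-126a. Its sum was 4709.5 to 6587 CPM in NC and 7659 to 10155 CPM in MAFLD libraries, with no overlap. Most of it was miR-126a-3p, at 4562 to 6299 CPM in NC and 7327 to 9646 CPM in MAFLD libraries. The scarcer miR-126a-5p overlapped, with 289 CPM in NC replicate 3 and 280 CPM in MAFLD replicate 2. For 15.2% of all miRNAs tested further on, every MAFLD library was above every NC library. The summed lists for blood, immune cells, stellate and mesenchymal cells, bile duct epithelium and muscle overlapped between the groups. The part of the brain and endothelial differences in the results given here was not tested.

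The family as a whole took a larger part of the miRNA reads in MAFLD than in NC livers. The 9 guide strands made up 2.95% (95% Wilson interval 2.93 to 2.97), 3.54% (3.51 to 3.57) and 4.77% (4.74 to 4.81) of the reads in the NC libraries. They made up 6.94% (6.90 to 6.97), 5.38% (5.36 to 5.40) and 5.88% (5.84 to 5.92) in the MAFLD libraries. The intervals cover counting error only. The lowest MAFLD library was above the highest NC library, and the mean of 6.06 ± 0.794% (SD, n = 3) in MAFLD was 1.62 times the 3.75 ± 0.928% (SD, n = 3) in NC livers. Without let-7f-5p the groups overlapped, at 17047 to 30608 CPM in NC and 29638 to 44205 CPM in MAFLD libraries. Fewer cells that make a miRNA and less of it per cell cannot be told apart in tissue RNA, and neither can more of it and less of the other miRNAs.

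When the reads of miR-148a-3p were left out of the total, the libraries within each group came closer together and the groups still did not overlap. The family then made up 10.3%, 9.65% and 9.27% of the remaining reads in NC and 13.0%, 12.4% and 12.2% in MAFLD libraries. NC replicate 3, which had the highest NC share of all reads, had the lowest here. The means were 9.75 ± 0.530% and 12.5 ± 0.446% (SD, n = 3 each), a ratio of 1.29 in place of 1.62. With median-ratio scaling, which sets the typical miRNA equal between libraries, the ratio was 1.19 and the groups overlapped (NC 38056 to 46688, MAFLD 44975 to 55828 CPM on that scale).

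**Figure D1:**
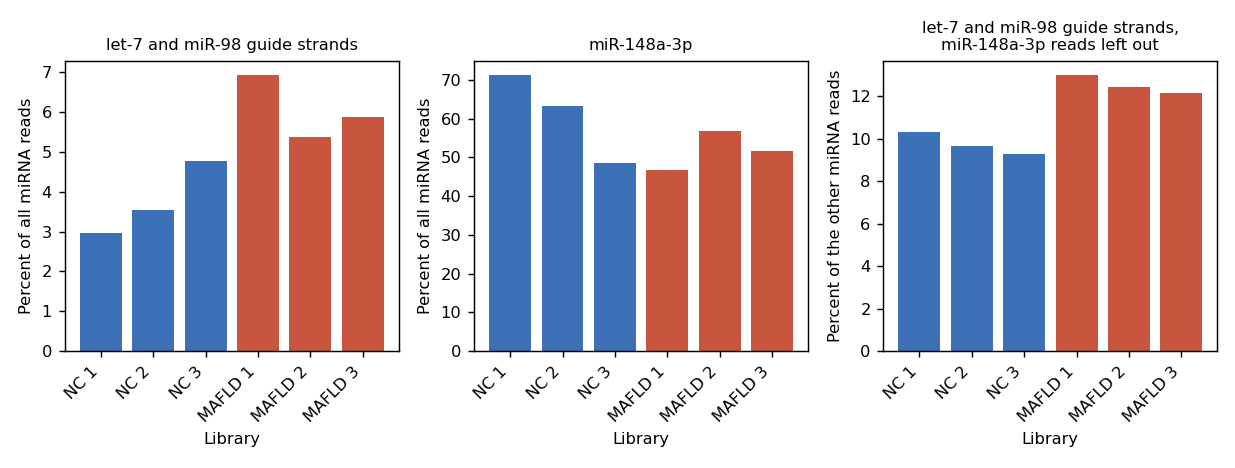
Bars give 1 library each (blue NC, red MAFLD): the summed let-7 and miR-98 guide strands as a percent of all miRNA reads (left), miR-148a-3p as a percent of all miRNA reads (middle), and the guide strands as a percent of the reads other than miR-148a-3p (right). The MAFLD bars are above all NC bars at left (from 5.38% against at most 4.77%) and at right (from 12.2% against at most 10.3%), while miR-148a-3p overlaps between the groups.

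let-7f-5p and let-7g-5p, the most abundant members, together held between 69.1% and 72.9% of the family's reads in every library. The let-7f-5p level (mmu-let-7f-5p) was 12485, 15843 and 17103 CPM in NC replicates 1 to 3 and 25146, 24169.6 and 21647 CPM in MAFLD replicates 1 to 3. All MAFLD libraries were above all NC libraries, with means of 15144 ± 2387 and 23654 ± 1805 CPM (SD, n = 3 each). For let-7g-5p, made from a single gene, the NC livers held 8727, 9710.3 and 15872 CPM and the MAFLD livers 23413, 15078 and 19080.3 CPM. Here NC replicate 3 was above MAFLD replicate 2, so the groups overlapped.

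let-7i-5p, the third in abundance, was at 3615, 4341 and 6564 CPM in NC against 7019, 4992 and 7299.8 CPM in MAFLD livers, with overlapping groups. let-7c-5p stood at 2156, 2453 and 3758 CPM in NC livers against 5837, 4160.3 and 4672 CPM in MAFLD livers. let-7a-5p, the founding member of the family, stood at 1579, 1933 and 2304 CPM against 4661, 3430.4 and 3443 CPM. For both of these strands every MAFLD library was above every NC library. let-7b-5p stood at 639.7, 702 and 1316 CPM in NC and 2308, 1334 and 1767 CPM in MAFLD livers, where the highest NC and the lowest MAFLD library were nearly equal.

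let-7d-5p, which alone begins with A, stood at 174, 198 and 325 CPM in the NC group and 690.3, 399 and 473 CPM in the MAFLD group, and the groups did not overlap. let-7e-5p was at 93.7, 161 and 202 CPM against 142, 142 and 178 CPM, and all MAFLD libraries lay inside the NC range. miR-98-5p was at 61.6, 54.2 and 267 CPM against 135, 102 and 219 CPM, and its highest value was that of NC replicate 3. The order of the levels was let-7f, let-7g, let-7i, let-7c, let-7a, let-7b and let-7d in all 6 libraries. The nearest neighbours in that order were let-7f and let-7g, whose ratio ran from 1.07 to 1.63. let-7e-5p and miR-98-5p could not be ordered, since let-7e-5p was the higher in 4 of the 6. These orders are of reads, all members being 22 bases long, and adapter ligation can favour some sequences over others.

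**Figure D2:**
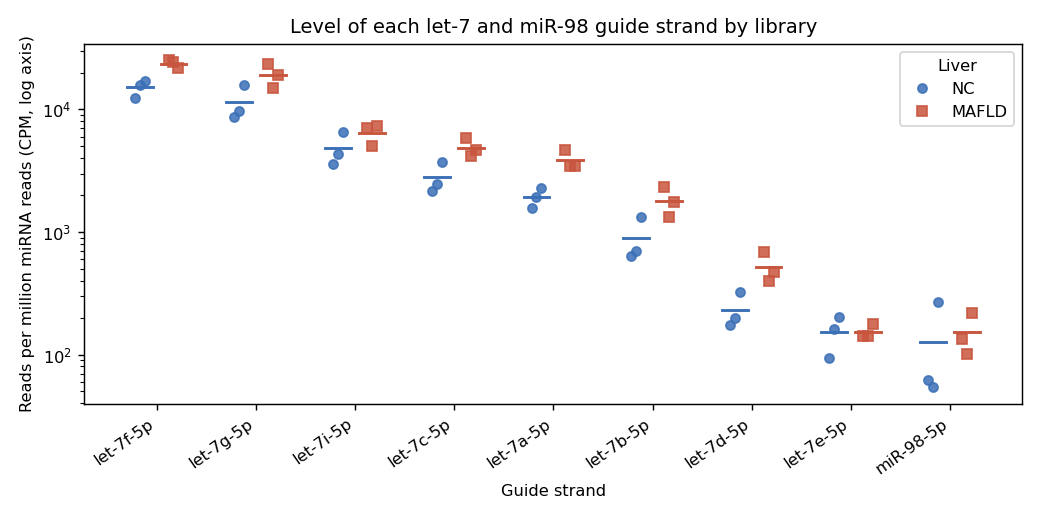
Points are libraries (blue circles NC, red squares MAFLD, n = 3 each) and lines are group means, on a log axis of CPM, with members ordered by their NC mean. The groups are apart for let-7f, let-7c, let-7a, let-7b and let-7d and overlap for let-7g, let-7i, let-7e and miR-98. The highest NC point is NC replicate 3 for every member.

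limma was then fitted to log2(CPM + 1) of the 501 miRNAs whose mean level reached 1 CPM, all 9 members among them, to ask which members differed between the diets. At an adjusted p under 0.05, 0 of the 9 members differed (limma with Benjamini-Hochberg adjustment), where 0.200% of all miRNAs tested did so. At an unadjusted p under 0.05, 6 of 9 members were higher in MAFLD livers and 0 were lower, and 13.4% of all miRNAs tested were higher by this measure. The 6 were let-7a, let-7b, let-7c, let-7d, let-7f and let-7g. For 5 of 9 members every MAFLD library was above every NC library, as it was for 15.2% of all miRNAs tested, and with the miR-148a-3p reads left out of the total this held for 6 of 9 members (let-7g in addition) against 14.0% of all miRNAs. On the CPM scale the log2 fold change was above 0 for all 9 members and for 71.3% of all miRNAs, with medians of 0.77 over the members and 0.43 over all miRNAs. All members are well above the 1 CPM filter. With the filter at a mean of 10 CPM the median of all miRNAs was 0.56. There 21.8% of all miRNAs were higher at an unadjusted p under 0.05, against the same 6 of 9 members.

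let-7d-5p showed the largest difference, a log2 fold change of 1.18 (SE 0.38, adjusted p = 0.192 from limma), from 232 ± 80.8 CPM in NC to 521 ± 152 CPM in MAFLD livers (SD, n = 3 each). let-7b-5p followed with 1.07 (SE 0.36, adjusted p = 0.199 from limma), from 886 ± 374 to 1803 ± 488 CPM. let-7a-5p had the smallest p of the members and took position 11 of the 501 miRNAs. Its log2 fold change was 0.99 (SE 0.30, unadjusted p = 0.00455 and adjusted p = 0.152 from limma), from 1939 ± 363 to 3845 ± 707 CPM. For let-7c-5p, let-7g-5p and let-7f-5p the values were 0.84, 0.77 and 0.65, with adjusted p from limma of 0.208, 0.208 and 0.212. let-7i-5p (0.44), miR-98-5p (0.58) and let-7e-5p (0.08) had adjusted p of 0.438, 0.570 and 0.934 from limma. The 95% interval of the log2 fold change ran from -0.77 to 0.92 for let-7e-5p and from -0.21 to 1.09 for let-7i-5p.

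On the CPM scale, leaving out NC replicate 3 changed how many members passed the adjusted p. Without it, 8 of 9 members did so, all but let-7e-5p and all higher, and 21.5% of the 498 miRNAs then tested were higher by this measure, and the log2 fold changes of the 9 ran from 0.32 to 1.44. In an alternative chosen after seeing the data, the miR-148a-3p reads were also left out of the total. There 2 of 9 members passed, let-7b-5p and let-7d-5p, both higher. Of all miRNAs, 8.65% passed there in either direction, and 3.82% passed and were higher. With median-ratio scaling and without NC replicate 3, also chosen after seeing the data, 0 of 9 members passed. Of all miRNAs, 9.04% passed there in either direction, and 2.01% passed and were higher. By this scaling 2 of 9 members were higher at an unadjusted p under 0.05, against 9.84% of all. Leaving out MAFLD replicate 1, the library with the highest family share, left let-7a-5p as the 1 member at an unadjusted p under 0.05, against 4.20% of all miRNAs. Without NC replicate 1 and without NC replicate 2 the members at this threshold were let-7a, let-7b and let-7d, against 4.82% and 4.91% of all miRNAs. All of these were higher in MAFLD livers.

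The scaling of the libraries changed the size of the differences for all members and their direction for some. With all 6 libraries and the reads of miR-148a-3p left out, 5 of 9 members had an unadjusted p under 0.05, all higher, against 10.4% of all miRNAs tested, and 0 an adjusted p under 0.05, against 0.400% of all. With median-ratio scaling 3 of 9 members were higher at an unadjusted p under 0.05, against 7.19% of all miRNAs. They were let-7a (log2 fold change 0.52), let-7b (0.60) and let-7d (0.71). TMM scaling, quantile normalization and a fit without the trend of the variance gave 3, 2 and 3 of 9 members higher at this threshold, against 7.78%, 8.58% and 10.2% of all miRNAs. Under median-ratio scaling let-7i-5p was at -0.03 and let-7e-5p at -0.38, and the median of all miRNAs moved from 0.43 to 0.04. On the recovered reads, the count test of edgeR gave 5 of 9 members higher at an unadjusted p under 0.05, against 7.39% of all miRNAs, and DESeq2 gave 3 of 9, against 5.79%. In DESeq2, let-7d-5p was the 1 member with an adjusted p under 0.05 (log2 fold change 0.72, adjusted p = 0.0318 from DESeq2), and 1.40% of all miRNAs were higher at that threshold.

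**Figure D3:**
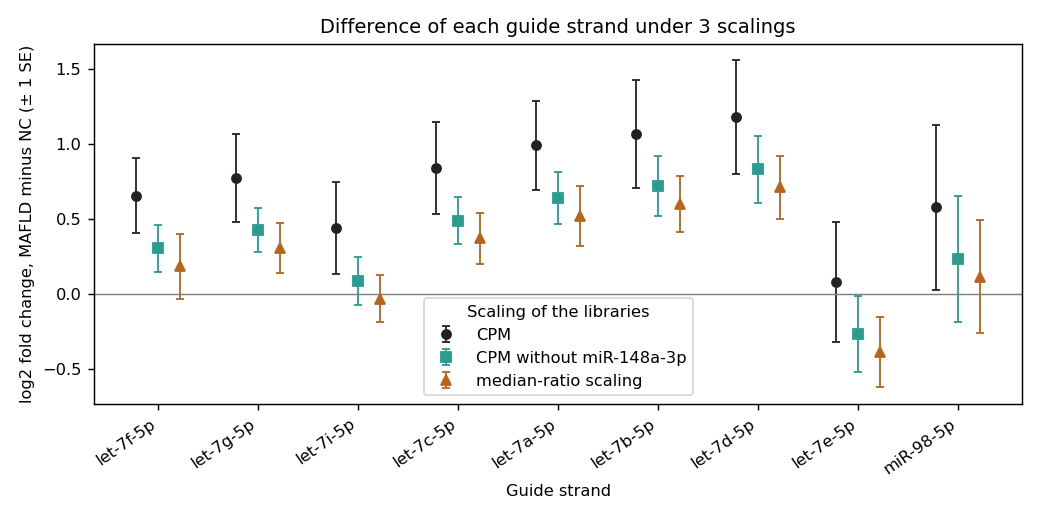
Points are the log2 fold changes of MAFLD against NC from limma with bars of 1 SE, for CPM (circles), CPM without the miR-148a-3p reads (squares) and median-ratio scaling (triangles). Each scaling moves the members by a near equal step, so let-7d stays highest (1.18 in CPM, 0.71 with median-ratio scaling) and let-7e lowest (0.08 and -0.38).

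Shares of the family total compare the members with each other and do not depend on the scaling of the libraries. Of the 9 shares, 2 were higher in all MAFLD than in all NC libraries, those of let-7a-5p and let-7d-5p, 1 was lower, that of let-7e-5p, and 6 overlapped. Each share was compared by a two-sided exact permutation test, whose smallest p with 3 libraries against 3 is 0.1, so no share could pass 0.05. The counting error of a share was at most 0.413 percentage points (the widest 95% Wilson interval, to either side).

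let-7d-5p made up 0.590%, 0.560% and 0.680% of the family in NC and 0.995%, 0.741% and 0.805% in MAFLD libraries (exact permutation p = 0.1). let-7e-5p made up 0.317%, 0.454% and 0.423% in NC and 0.204%, 0.265% and 0.303% in MAFLD libraries (exact permutation p = 0.1). So the share of let-7d was higher and that of let-7e lower in each MAFLD library than in each NC library, although the CPM of let-7e was nearly the same in both groups. The ratio of let-7d-5p to let-7e-5p reads was 1.86, 1.23 and 1.61 in NC and 4.87, 2.80 and 2.66 in MAFLD livers. These 2 members come from chromosomes 13 and 17 and differ at more than 1 base. let-7e-5p, however, differs at 1 base from the more abundant let-7a-5p, and an exchange of reads with it was not tested.

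let-7a-5p held 5.35%, 5.46% and 4.83% of the family in NC and 6.72%, 6.38% and 5.86% in MAFLD libraries (exact permutation p = 0.1). let-7i-5p held 12.2%, 12.3% and 13.8% against 10.1%, 9.28% and 12.4%, where MAFLD replicate 3 lay within the NC range (exact permutation p = 0.3). The ratio of let-7g-5p to let-7i-5p reads parted the groups, with 2.41, 2.24 and 2.42 in NC and 3.34, 3.02 and 2.61 in MAFLD livers. Of the ratios between neighbours in the order of levels, those of let-7i to let-7c and of let-7d to let-7e also did so. The other such ratios overlapped between the groups, and none was tested. When shares were taken without let-7f-5p, or as log2 ratios to the geometric mean of the 9 members, let-7a-5p overlapped between the groups (exact permutation p = 0.2 and 0.3). By both measures let-7b-5p was then higher and let-7i-5p lower in every MAFLD library (exact permutation p = 0.1 for each), while let-7d-5p was still higher and let-7e-5p lower without overlap. let-7f-5p, at 41.0 ± 4.60% in NC and 39.3 ± 4.84% in MAFLD livers, and let-7g-5p, at 30.1 ± 2.95% and 31.4 ± 3.01% (SD, n = 3 each), differed by less than the spread between libraries. The shares of let-7b-5p (2.30 ± 0.405% and 2.94 ± 0.428%), let-7c-5p (7.37 ± 0.477% and 8.03 ± 0.350%) and miR-98-5p (0.307 ± 0.221% and 0.252 ± 0.104%) also overlapped between the groups.

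When the 5 members that are joined by single-base differences (let-7a, let-7b, let-7c, let-7e and let-7f) were summed, their share was 56.2 ± 4.05% in NC and 56.9 ± 4.26% in MAFLD livers (SD, n = 3 each). Their sum thus hid the differences seen for let-7a and let-7e, and of the 5 groups of reads left, let-7d alone did not overlap. Whether reads of let-7a and let-7e were exchanged with their neighbours was not tested.

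**Figure D4:**
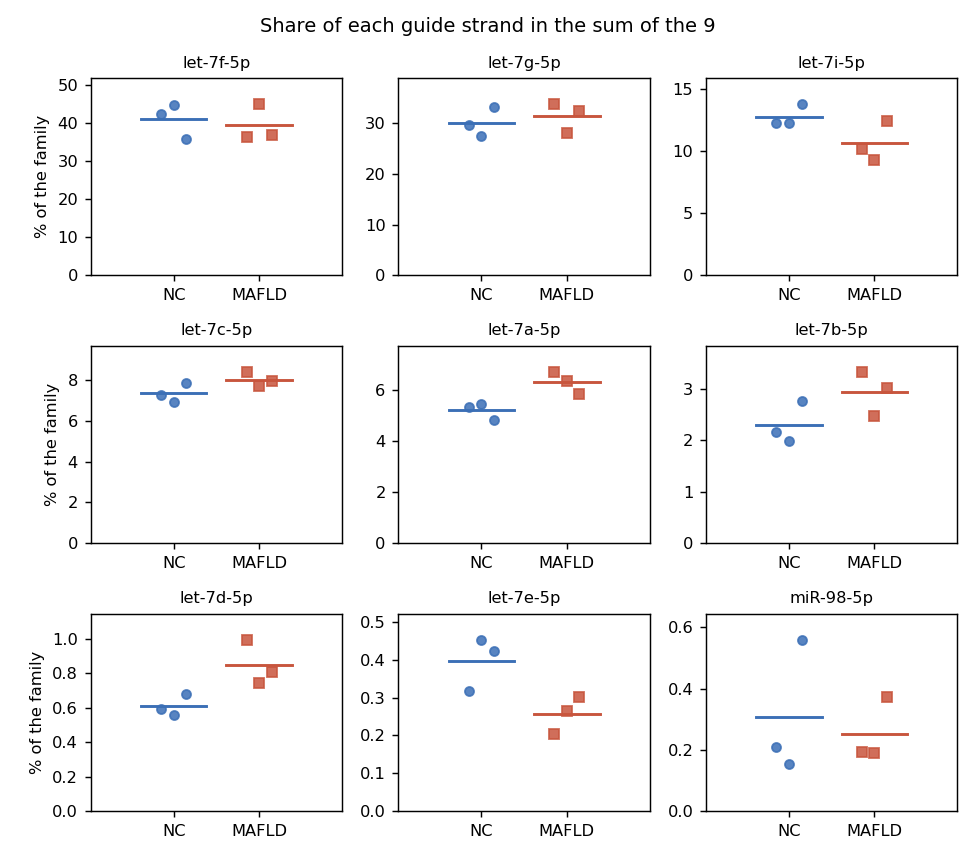
Each panel gives the percent of the summed 9 guide strands held by 1 member, with points for libraries (blue circles NC, red squares MAFLD, n = 3 each), lines for group means and an axis from 0. The MAFLD points lie above all NC points for let-7a and let-7d and below them for let-7e.

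Passenger strands carry the name of their hairpin and can separate genes that share a guide. Of the 12 passenger strands listed, 10 reached a mean level of 1 CPM, and let-7a-2-3p and let-7c-1-3p were read at most 6 times in any library. Of the 10, 0 had an unadjusted p under 0.05 and 0 an adjusted p under 0.05 in limma, where 18.0% of all miRNAs had an unadjusted p under 0.05. Of the 10, 8 had a log2 fold change above 0, or 7 of 9 with the names that share all reads counted once, near the 71.3% of all miRNAs, and the median was 0.31 by either count. let-7d-3p, the most abundant passenger, had 85.5, 110.2 and 185 CPM in the NC and 179, 163 and 218 CPM in the MAFLD group. The log2 fold change of let-7d-3p was 0.62 (SE 0.40, adjusted p = 0.411 from limma), and the groups overlapped. let-7a-1-3p and let-7c-2-3p had the same reads in every library, and their mature sequences are the same, as shown with bases 2 to 8 in capitals.
let-7a-1-3p: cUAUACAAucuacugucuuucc
let-7c-2-3p: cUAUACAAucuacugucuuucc
let-7d-3p: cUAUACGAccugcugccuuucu
The reads of the first 2 were therefore counted on both names, at 22.4, 29.3 and 61.3 CPM in NC and at 70.9, 44.0 and 53.4 CPM in MAFLD livers.

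The ratio of guide to passenger reads was computed for 8 hairpins or groups of hairpins. For let-7d it was 2.04, 1.80 and 1.75 in NC and 3.86, 2.44 and 2.17 in MAFLD livers, the lowest ratio of the family in every library and without overlap between the groups (exact permutation test, p = 0.1, the smallest possible). With 173 to 765 passenger reads per library it was also the ratio with the most reads behind it. For let-7b it was 70.9, 58.0 and 97.8 in NC and 171, 112 and 301 in MAFLD livers, also without overlap (exact permutation p = 0.1), but resting on 9 to 56 passenger reads. The other 6 ratios overlapped between the groups, with exact permutation p between 0.3 and 1. The guides of let-7g and let-7i outnumbered their passengers over 1000 times in every library, where 1 to 9 passenger reads were counted.

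Cluster partners are miRNAs cut from transcripts that also carry a let-7 hairpin: miR-99a and miR-125b with let-7c-1, miR-99b and miR-125a with let-7e, and miR-100 with let-7a-2. miR-125b-5p also comes from a second gene, on chromosome 9 beyond Mirlet7a-2. All 5 had a log2 fold change above 0, between 0.52 and 0.88 with a median of 0.60, and 0 had an unadjusted or adjusted p under 0.05 in limma with all 6 libraries. Of all miRNAs tested, 71.3% had a log2 fold change above 0, 18.0% an unadjusted and 0.200% an adjusted p under 0.05. miR-99a-5p, the most abundant, had 5104, 5446 and 5448 CPM in NC against 8254, 6920.4 and 7738 CPM in MAFLD livers, so the groups did not overlap (log2 fold change 0.52, SE 0.26, adjusted p = 0.304 from limma). miR-100-5p was at 779, 765 and 1177 CPM against 1417, 1081 and 1589 CPM, with overlap (log2 fold change 0.60, SE 0.33, adjusted p = 0.332 from limma). Beside let-7e-5p, at a log2 fold change of 0.08, its partners miR-99b-5p and miR-125a-5p were at 0.58 and 0.75, and the difference between them was not tested. Without NC replicate 3 all 5 partners and 3 passenger strands (let-7d-3p and the shared reads of let-7a-1-3p and let-7c-2-3p) had an unadjusted p under 0.05, as had 35.7% of all miRNAs tested then.

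**Figure D5:**
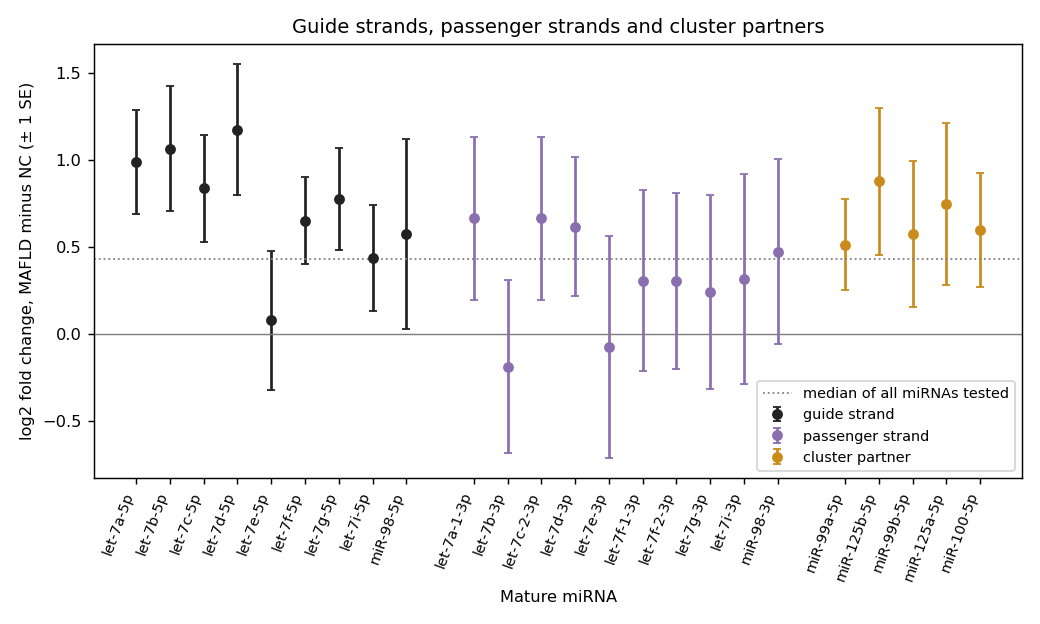
Points are log2 fold changes of MAFLD against NC from limma on log2(CPM + 1), with bars of 1 SE, for the 9 guide strands, the 10 passenger strands tested and the 5 cluster partners. The dotted line is the median of all miRNAs tested, 0.43: 8 of the 9 guides, all but let-7e, and all 5 partners are above it, against 4 of the 10 passengers, let-7a-1-3p and let-7c-2-3p among them with the same reads. let-7i is barely above the line, at 0.437 against 0.429.

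The seed of the family was found in 2 other listed miRNAs, let-7k and miR-1961. let-7j differs from let-7i-5p by G8U, which falls on the last base of the seed, and has 2 more bases at its end. They are shown with bases 2 to 8 in capitals.
let-7k: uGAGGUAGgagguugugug
miR-1961: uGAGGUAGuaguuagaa
let-7j: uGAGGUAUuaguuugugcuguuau
let-7k had 1.18 to 1.91 CPM in NC and 6.00, 1.92 and 9.12 CPM in MAFLD libraries, from 2 to 16 reads, so that the highest NC and the lowest MAFLD library were practically equal. miR-1961 was read 3 to 9 times in any library. Their adjusted p from limma were 0.284 and 0.915. let-7j had 210, 238 and 464 CPM in NC against 572, 354 and 543 CPM in MAFLD livers (log2 fold change 0.75, SE 0.39, adjusted p = 0.310 from limma), with overlap.

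Outside the family, the 5 miRNAs whose log2 level followed the family total most closely over the 6 libraries were taken from 96 whose mean level reached 100 CPM. They were miR-92a-3p (Pearson r = 0.980, Spearman rho = 0.943), miR-126a-5p (0.977 and 0.943), miR-16-5p (0.976 and 1), miR-1839-5p (0.975 and 0.943) and miR-199a-3p (0.974 and 0.943). miR-92a comes from clusters known for their part in cell growth, miR-126a marks endothelium and miR-199a marks mesenchymal cells. Of the other miRNAs in the stellate and mesenchymal list, miR-199a-5p (402 CPM) and miR-214-3p (63.8 CPM) were highest in MAFLD replicate 1. miR-143-3p (28509 CPM) and miR-145a-5p (436 CPM) were highest in NC replicate 3, so the list did not follow the family as a whole. miR-16-5p had 329, 336 and 515 CPM in NC against 1044, 744 and 872 CPM in MAFLD livers. The points are 6 libraries scaled to the same total and set in part by the same miR-148a-3p share, so the values are descriptions.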

How the data were processed

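Small RNA of mouse liver was sequenced in 3 NC and 3 MAFLD libraries, and for each of 1546 mature miRNAs the authors deposited its CPM, relative to the reads on all listed miRNAs of a library. FastQC, cutadapt, Bowtie, edgeR and GRCm38 are named in the submitters' processing notes, and the rule for reads matching several miRNAs is not given in the sources used here. Dividing each library by its lowest nonzero CPM gave whole numbers for 100% of the values (within 0.02), which were taken as the reads. Groups and replicate numbers came from the sample titles. No source says that the libraries of a group came from separate mice, so the p-values measure only the spread between these libraries, which may be technical.

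The test between the groups was the moderated test of limma 3.58.1 (R 4.3.3), its variance prior following mean log2(CPM + 1), with Benjamini-Hochberg adjustment across 501 miRNAs of mean level 1 CPM or more. Fold changes on this scale understate those of scarce miRNAs. Shares were compared with exact permutation tests in scipy 1.17.1. Also tried were a pseudocount of 0.1 or 5, no filter (the 1467 miRNAs above 0 in any library) or 10 CPM, median-ratio, TMM and quantile scaling, CPM without miR-148a-3p, no trend, a block for the replicate number, leaving out each library, and edgeR 4.0.16 (quasi-likelihood test) and DESeq2 1.42.0 on the recovered reads. The fits were tested on simulated data in which as many miRNAs were raised as lowered. A common shift of most miRNAs, as on the CPM scale here, was not tried. All 9 members were named. Of the passengers and partners, those with an unadjusted p under 0.05 or, with none, the 2 most abundant were named, together with miRNAs of the same seed and the 5 nearest in pattern. let-7j and other strands named beside these were picked with their values in view. The members and lists were chosen with earlier results of these data known.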

Additional observations from a re-analysis of the deposited data

How the results depend on the processing

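The 0 members at an adjusted p under 0.05 became 1 with DESeq2, 8 without NC replicate 3 (range 0 to 8 when 1 library was left out) and 2 with CPM without miR-148a-3p and without NC replicate 3. They stayed at 0 in the other 17 alternatives. The 6 members at an unadjusted p under 0.05 became 3 with median-ratio scaling, TMM scaling, DESeq2 and without the trend, and 2 with quantile normalization and with median-ratio scaling without NC replicate 3, and ranged from 1 to 8 when 1 library was left out. In every alternative those that passed were higher in MAFLD livers. The family total (mean log2 difference 0.71) became 0.25 with median-ratio scaling, 0.30 with TMM scaling, 0.36 without miR-148a-3p and 0.036 with quantile normalization, and ranged from 0.55 to 0.90 when 1 library was left out. The 3 shares without overlap became 1 when members 1 base apart were summed, and ranged from 3 to 5 when 1 library was left out. They became 4 with shares without let-7f-5p and with ratios to the geometric mean of the members, where let-7a-5p overlapped and let-7b-5p and let-7i-5p did not. The share of let-7f-5p reversed to 0.274 points without NC replicate 2 (range -4.42 to 0.274) and that of miR-98-5p to 0.0712 points without NC replicate 3 (range -0.132 to 0.0712). The shares of let-7d-5p and let-7e-5p kept their direction in all 8 alternatives. So did those of let-7a-5p, let-7b-5p, let-7c-5p, let-7g-5p and let-7i-5p, where let-7g-5p differed by as little as 0.00487 points. Leaving out 1 library gave 0 to 3 passenger strands and 0 to 5 cluster partners at an unadjusted p under 0.05. The most of both came without NC replicate 3, where 35.7% of all miRNAs passed. Without MAFLD replicate 2, 1 partner passed, and 14.4% of all miRNAs were higher at this threshold. With CPM without miR-148a-3p and without NC replicate 3, 1 partner passed, and 14.5% of all miRNAs were higher. let-7e-5p reversed to -0.38 with median-ratio scaling, -0.33 with TMM, -0.27 without miR-148a-3p, -0.29 with quantile normalization, -0.36 with edgeR, -0.40 with DESeq2, -0.39 with median-ratio scaling and -0.25 with CPM without miR-148a-3p when NC replicate 3 was left out of both, and to -0.23 and -0.028 without NC replicate 1 and MAFLD replicate 3 (range -0.23 to 0.32 when 1 library was left out). let-7i-5p reversed to -0.030 with median-ratio scaling, -0.030 with it and without NC replicate 3, -0.18 with quantile normalization, -0.0059 with edgeR and -0.041 with DESeq2. let-7f-5p reversed to -0.057 with quantile normalization, and miR-98-5p to -0.0078 with edgeR and -0.022 with DESeq2. The scalings other than CPM lower the median of all miRNAs. On the CPM scale that median was 0.429 with all libraries, 0.262 without NC replicate 1 and 0.278 without MAFLD replicate 3. The cause of the reversals was not tested. With the replicate block 0 members passed the adjusted p, against 0.998% of all miRNAs, and 5 were higher at the unadjusted p, against 13.6%. Same-numbered libraries were of mice on different diets, and their deviations correlated at 0.0121, -0.0202 and -0.0459. Where a library was left out, a group of 2 was assumed to vary like the other.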

Other observations

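let-7j, listed on chromosome 3 and not a member, had reads in a nearly fixed proportion to let-7g-5p, a pattern noticed after the values were seen. It made up 2.40%, 2.45% and 2.92% of the let-7g-5p reads in NC and 2.44%, 2.35% and 2.85% in MAFLD libraries, and between 5.49% and 8.15% of the let-7i-5p reads, from which its sequence differs by G8U and the added end.

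let-7b-5p and let-7d-5p, from chromosomes 15 and 13, kept a ratio of reads between 3.34 and 4.06 in all 6 libraries, while the ratio of let-7d-5p to let-7e-5p ran from 1.23 to 4.87. Both pairs were picked with the values in view, and not every pair of members was compared, so other pairs may be as steady.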
